A study of Mus musculus with 12 samples.

Results

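The cortical hem is a strip at the dorsomedial edge of the embryonic telencephalon that secretes Wnt and bone morphogenetic protein (BMP) signals. Wnt proteins bind Frizzled receptors and can stabilise beta-catenin, R-spondins raise the number of Frizzled receptors at the cell surface, and BMPs act through receptor kinases and Smad proteins. Hem signals are known for inducing the hippocampus beside the hem, and the hem also gives rise to Cajal-Retzius neurons and adjoins the choroid plexus. None of these ligands is made by the hem alone, since the roof plate of other brain regions and the meninges also make several of them.

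Here 10 ligand genes of this group were followed, namely Wnt2b, Wnt3a, Wnt5a, Wnt8b, Bmp4, Bmp6, Bmp7, Rspo1, Rspo2 and Rspo3. They were found as all probe sets of the array whose platform annotation gives a single gene symbol that is one of these names. This gave 15 probe sets of 45037, and 10 genes of the 17097 that had a probe set of their own. Wnt5a, Wnt8b and Rspo3 each had more than 1 probe set, as did Bmp7, and the brightest over all arrays stood for the gene. Each of 4 groups had 3 arrays, 12 in all. For the YAP experiment RNA came from E11.5 forebrain with midbrain, of TetO-YAP1;Nes-rtTA embryos (YAP overexpression) or Nes-rtTA embryos (YAP control). TetO-YAP1 is a doxycycline-dependent allele of YAP1 with the S127A change, Nes-rtTA places its activator under the Nestin promoter of neural progenitors, and the dams ate doxycycline at 200 mg/kg of food from E7.5. In the Nf2 experiment, dorsal telencephalon at E13.5 came from Nf2F/F;Emx1-Cre embryos (Nf2 knockout) or Nf2F/+;Emx1-Cre embryos (Nf2 control). Emx1-Cre places the recombinase under the Emx1 promoter of dorsal telencephalic cells. These controls carried the Cre and kept a single working copy of Nf2 in the cells with Cre, so the comparison is between a full and a partial loss. YAP is a transcriptional co-activator held back by the Hippo pathway, and Merlin, the product of Nf2, is an activator of that pathway. The genetic background was mixed in all groups, and how many embryos an array stands for is not given in the sources used here, so the p-values rest on array-to-array spread that may be in part technical.

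Values were log2 intensities. The median of an array was 5.03 to 5.10 at E11.5 and 4.30 to 4.42 at E13.5, so levels were not tested between experiments or between genes. Where a signal is placed above or below the median, this is the median of its own array. Within a group, the lowest correlation of any pair of arrays was r = 0.994, across genes. On the probe set that stood for each, the manipulated genes moved only a little. Probe sequences were not available, so whether these probe sets read the TetO-YAP1 transcript or the deleted part of Nf2 is unknown. The values therefore do not measure the strength of either manipulation. Yap1 read 11.07, 10.99 and 11.05 in YAP controls and 11.35, 11.23 and 11.33 with overexpression (adjusted p = 0.0551, limma), and Nf2 read 8.41, 8.66 and 8.51 in Nf2 controls and 8.06, 8.27 and 8.11 in knockouts (adjusted p = 0.246). Of 4 measured cortical transcription factor genes (Lhx2, Emx1, Emx2 and Pax6), 4 lay above the array median on all 6 arrays at E13.5 and 3 at E11.5, where Emx1 was above it on 3. Midbrain genes were above the median on every array at E11.5 in 4 of 9 cases, among them En2 and Pax3, and on none of the arrays at E13.5 in 9 of 9. Lmx1a, a defining transcription factor gene of the hem and roof plate, was below the array median on all arrays at E11.5 and on all but 1 at E13.5, while Msx1 was above it on all. In whole tissue, fewer cells of a type and less RNA per cell cannot be told apart.

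Promoter sequence was available for 6 of the 10 genes in RefSeq annotation of GRCm38.p6. The sequences shown are those of Bmp6, the gene that changed most, and Rspo1, which went the other way. Both genes were called in the YAP experiment, as was Wnt5a, for which no sequence was available. Each sequence is the 250 bases before the annotated start, written 5′ to 3′ on the gene's own strand. Bmp6 lies at chr13:38345466-38345715 and Rspo1 at chr4:124986180-124986429, both on the plus strand.
Bmp6: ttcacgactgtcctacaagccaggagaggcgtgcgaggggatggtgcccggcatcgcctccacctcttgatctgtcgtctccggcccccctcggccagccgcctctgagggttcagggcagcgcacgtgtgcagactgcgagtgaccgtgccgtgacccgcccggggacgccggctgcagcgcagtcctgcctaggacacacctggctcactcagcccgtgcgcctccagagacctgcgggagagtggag
Rspo1: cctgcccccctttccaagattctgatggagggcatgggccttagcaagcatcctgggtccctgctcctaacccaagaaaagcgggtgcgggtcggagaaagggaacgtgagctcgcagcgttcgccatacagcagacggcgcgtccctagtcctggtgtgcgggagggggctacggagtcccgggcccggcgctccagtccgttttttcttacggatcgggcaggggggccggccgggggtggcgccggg
Matches on either strand to the TEAD motif GGAATG, the TCF/LEF motif in its forms CTTTGAA, the related CTTTGAT, the form CTTTGTA and the form CTTTGTT, and the AP-1 motif in its forms TGAGTCA and, likewise, TGACTCA would have been set in capitals. There were 0 matches to any of them in these windows, nor in those of Wnt2b, Wnt3a, Wnt8b and Bmp4. Over all 32851 promoter windows of this length, 12.6% held the TEAD motif, 14.8% a TCF/LEF motif and 4.46% an AP-1 motif, so an empty window is the common case and says nothing on whether these factors bind elsewhere at the genes.

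The YAP comparison asked how the hem ligand genes respond when YAP is overexpressed in neural progenitors of the early brain. Bmp6 and Wnt5a rose and Rspo1 fell, while the other 7 genes were not called. Bmp6 rose 2.53-fold and Wnt5a 1.69-fold, and Rspo1 was 1.43-fold lower, with 3 arrays against 3. A gene was called at a Benjamini-Hochberg adjusted p under 0.05 over all genes, from a linear model of all 12 arrays in limma. By that rule 3 of 10 genes were called, against 6.31% of all genes. The 2 higher calls compare with 2.67% of all genes called higher, and the 1 lower call with 3.64% called lower. The 10 genes were chosen with results of these arrays known, so this and later counts against all genes are descriptions. All genes include dim ones. Among genes above the array median in at least 3 arrays, a smaller set, 1353 were called instead of 1078. Subtracting each array's median turned the calls over all genes from 456 higher and 622 lower to 528 higher and 472 lower, and the directions of Bmp6, Wnt5a and Rspo1 were the same under that scaling and under quantile normalization. The median log2 change of the 10 genes was 0.03, against -0.01 for all genes.

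Bmp6 encodes a BMP ligand closely related to Bmp7. It read 6.14, 5.93 and 5.64 in YAP controls and 7.34, 7.16 and 7.23 with overexpression. Every overexpression array was above every control array by more than the spread within either group. The log2 change was 1.34 (SE 0.15, adjusted p = 0.000401, limma), and it ranged from 1.21 to 1.46 over 15 alternative analyses, all of which called it.

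Bmp4 encodes another BMP ligand of the dorsal midline. It read 7.48, 7.61 and 6.81 in controls and 7.02, 6.55 and 7.09 with overexpression, so the groups overlapped. Its log2 difference was -0.41 (SE 0.26, adjusted p = 0.440, limma), which is an imprecise estimate because the arrays of each group were far apart. Bmp7 averaged 7.16 (SD 0.18, n = 3) in controls and 7.17 (SD 0.03, n = 3) with overexpression, a log2 difference of 0.01 (SE 0.11). Its other probe sets differed by 0.02 (SE 0.18) and -0.32 (SE 0.12), the last with groups that did not overlap and an unadjusted limma p of 0.0188 (adjusted p = 0.193 over all probe sets). Only this last difference exceeded its SE, and the other probe sets of Bmp7 showed no direction.

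Wnt5a encodes a ligand best known for signalling that does not use beta-catenin. Its brighter probe set read 8.70, 8.64 and 8.22 in controls and 9.39, 9.30 and 9.13 with overexpression, and its dimmer one 7.07, 7.20 and 6.76 against 7.41, 7.88 and 7.95. On both, every overexpression array was above every control array. The brighter changed by 0.75 (SE 0.12, adjusted p = 0.00368, limma) and stayed called in 15 of 15 alternatives, with adjusted p from 0.00139 to 0.0391. The dimmer changed by 0.74 (SE 0.21), nearly the same size, but with a wider spread it was not called (adjusted p = 0.0846 over all probe sets).

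The ligands Wnt3a and Wnt8b, which can act through beta-catenin and mark the hem and the medial wall beside it, differed less. Wnt3a read 6.25, 6.41 and 6.15 in controls and 6.33, 6.46 and 6.71 with overexpression, with overlapping groups (0.23, SE 0.12, adjusted p = 0.321, limma). Wnt8b read 7.83, 7.79 and 8.12 against 8.18, 8.19 and 8.09, also overlapping (0.24, SE 0.13, adjusted p = 0.348), and its other probe set, below the array median on all arrays, differed by -0.08 (SE 0.13). Wnt2b read 4.15, 4.32 and 4.41 against 4.20, 4.05 and 4.17 (-0.15, SE 0.09, adjusted p = 0.390). Wnt2b was below the array median on all 12 arrays, so its signal was weak in both experiments.

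Of the R-spondins, Rspo1 was called and Rspo2 and Rspo3 were not. Rspo1 read 8.99, 8.96 and 8.91 in controls, a narrow range, and 8.33, 8.29 and 8.69 with overexpression, all of them lower. It fell by 0.52 on the log2 scale (SE 0.13, adjusted p = 0.0374, limma). This call was close to the threshold. It was kept in 7 of 15 alternatives and lost when an array was left out, either a control (adjusted p = 0.107 for replicate 1, 0.0856 for replicate 2 and 0.0906 for replicate 3) or overexpression replicate 1 (0.118) or 2 (0.0991). It was also lost with only these 6 arrays (0.0703), with array weights (0.0526) and with same-numbered arrays as a block (0.0562). Adjusted over all probe sets it was 0.0508. The change itself ranged from -0.64 to -0.44.

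Rspo2 read 9.24, 9.34 and 9.30 in controls and 9.34, 9.28 and 9.43 with overexpression, with overlapping groups and a difference of 0.06 (SE 0.10, adjusted p = 0.834, limma). Rspo3 read 8.89, 8.64 and 8.86 against 8.54, 8.61 and 8.74, also overlapping (-0.17, SE 0.12, adjusted p = 0.510), and its dimmer probe set differed by -0.27 (SE 0.15). Groups were apart in 3 of the 10 genes, 2 with overexpression higher and 1 with it lower. Over all genes they were apart, either way, in 21.3%. Fitted over all 45037 probe sets, of which 3.78% were called, 2 of the 15 were called, those of Bmp6 and the brighter of Wnt5a.

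**Figure D1:**
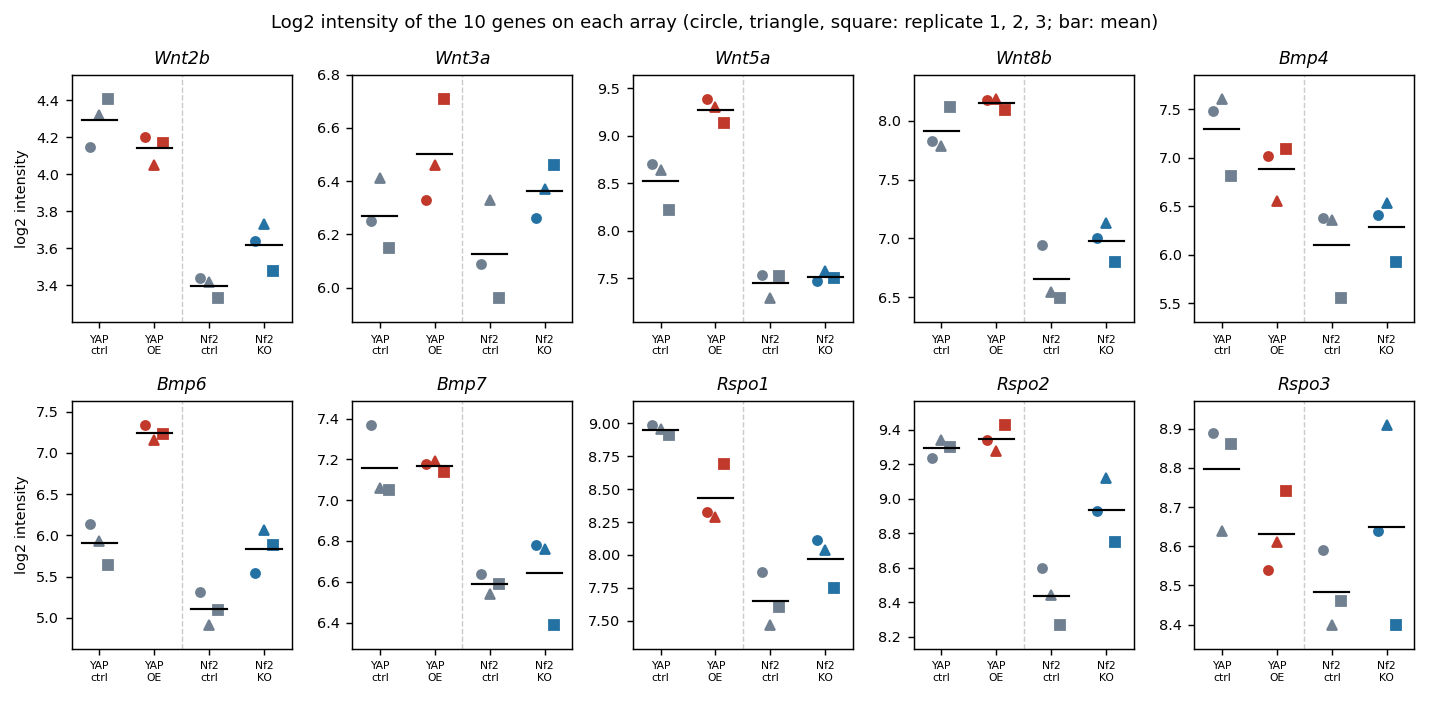
Log2 intensity (vertical axes, a scale of its own in each panel) of the 10 ligand genes on each of the 12 arrays, with points for replicates 1, 2 and 3 and a bar at the group mean. The overexpression arrays of Bmp6 (7.16 to 7.34) and Wnt5a (9.13 to 9.39) lie above all YAP controls and those of Rspo1 (8.29 to 8.69) below them, while in the Nf2 experiment the knockout arrays of Bmp6, Rspo2 and Wnt2b lie above all controls.

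The Nf2 comparison asked how the same genes respond when Nf2 is lost from the dorsal telencephalon, against tissue with a single copy. No ligand gene was called by limma, but all 10 had a positive log2 difference, against 48.3% of all genes, also with array medians subtracted or after quantile normalization. The largest differences were those of Bmp6 (1.65-fold) and Rspo2 (1.41-fold), with 3 arrays against 3. The count of 0 called genes compares with 0.252% of all genes called. At an unadjusted p under 0.05, 5 of the 10 were higher (Wnt2b, Wnt8b, Bmp6, Rspo1 and Rspo2) and none lower, against 3.15% of all genes higher at that threshold. The median of the 10 differences was 0.23, against 0.00 over all genes. The genes were chosen with results of these arrays known and were measured in the same RNA, so their shared sign is a description. In the same comparison all 8 measured endothelial genes had a negative difference (median -0.28), 0 of them called and 3 at an unadjusted p under 0.05, and their summed linear intensity was 785 to 893 in controls and 583 to 855 in knockouts. The part of endothelial cells in the ligand differences was not tested.

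Bmp6 read 5.31, 4.92 and 5.10 in Nf2 controls and 5.54, 6.07 and 5.88 in knockouts. The groups did not overlap, and the log2 difference was 0.72 (SE 0.15, unadjusted p = 0.000476, adjusted p = 0.118, limma). With array weights it was called (0.77, adjusted p = 0.0412), and over the 15 alternatives its adjusted p ran from 0.0412 to 0.495. Rspo2 read 8.60, 8.44 and 8.27 in controls and 8.93, 9.12 and 8.75 in knockouts, again without overlap. Its difference was 0.50 (SE 0.10, unadjusted p = 0.000444, adjusted p = 0.115), with adjusted p from 0.0540 to 0.448 over the alternatives. Wnt2b read 3.44, 3.42 and 3.33 against 3.64, 3.73 and 3.48, without overlap but below the array median throughout (0.22, SE 0.09, adjusted p = 0.734). Groups were thus apart in 3 of the 10 genes with the knockout higher and in 0 with it lower, against 6.60% and 6.09% of all genes.

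Among the other ligands the groups overlapped. Wnt8b read 6.94, 6.54 and 6.49 in controls and 7.00, 7.13 and 6.80 in knockouts (0.32, SE 0.13, adjusted p = 0.734, limma), while its dim probe set differed by -0.10 (SE 0.13). Rspo1 read 7.87, 7.47 and 7.60 against 8.11, 8.04 and 7.75 (0.32, SE 0.13, adjusted p = 0.738). Wnt3a read 6.09, 6.33 and 5.96 against 6.26, 6.37 and 6.46 (0.24, SE 0.12, adjusted p = 0.847). In each of these the group means were ordered alike, with knockouts higher, and single arrays crossed.

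Rspo3 averaged 8.48 (SD 0.10, n = 3) in controls and 8.65 (SD 0.26, n = 3) in knockouts, and its probe sets disagreed in sign, at 0.17 (SE 0.12) and -0.16 (SE 0.15). Bmp4 read 6.38, 6.36 and 5.55 against 6.41, 6.53 and 5.92, so replicate 3 was the lowest array of both groups (0.19, SE 0.26). Wnt5a, which rose with YAP, averaged 7.45 (SD 0.14, n = 3) and 7.52 (SD 0.06, n = 3), a difference of 0.07 (SE 0.12, adjusted p = 0.987, limma), and its other probe set differed by 0.08 (SE 0.21). Bmp7 differed by 0.05 (SE 0.11), -0.08 (SE 0.18) and 0.07 (SE 0.12) on its 3 probe sets. Of all 15 probe sets, 12 had a positive and 3 a negative difference.

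**Figure D2:**
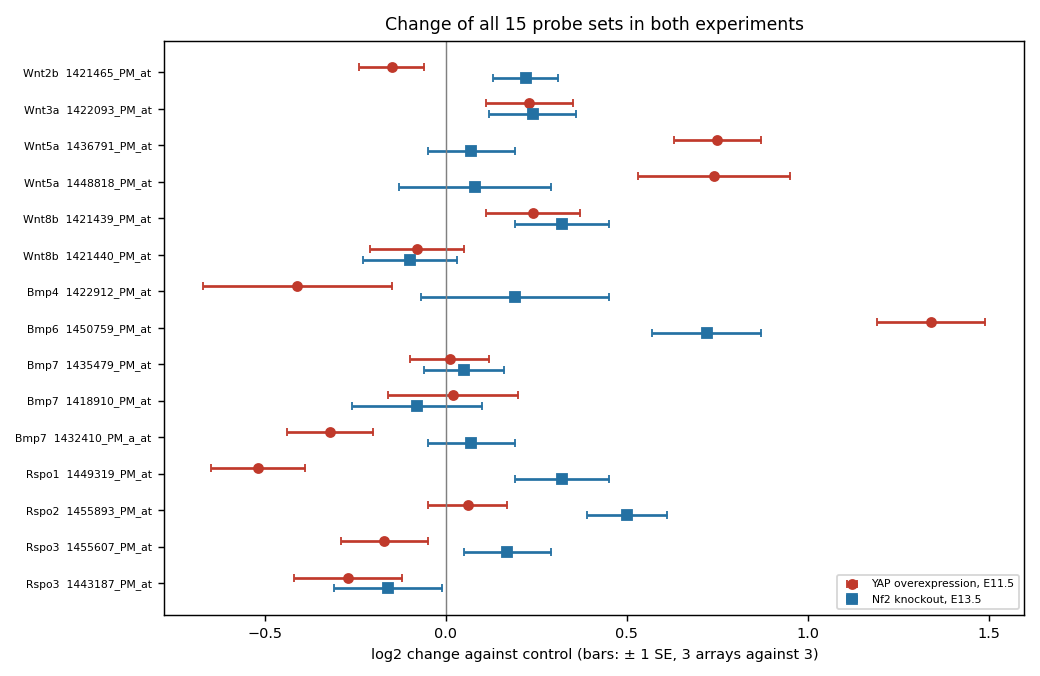
Log2 change against control (horizontal axis) of all 15 probe sets, with bars of 1 SE on either side, for YAP overexpression (circles) and Nf2 knockout (squares). Both probe sets of Wnt5a sit near 0.75 with YAP and near 0.07 with Nf2 loss, Bmp6 is the farthest to the right in both, and Rspo1 lies at -0.52 with YAP and at 0.32 with Nf2 loss.

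Same-numbered arrays of the Nf2 experiment had residuals with weak positive correlations, and the labels do not state pairs. The difference within each same-numbered pair is given as a description. Bmp6 differed by 0.23, 1.15 and 0.78 in pairs 1, 2 and 3, and Rspo2 by 0.33, 0.68 and 0.48. Rspo1 differed by 0.24, 0.57 and 0.15, Wnt8b by 0.06, 0.59 and 0.31, and Wnt2b by 0.20, 0.31 and 0.15. All of these were higher in the knockout of every pair, and for Bmp6 the size differed widely between pairs. For Bmp6, Rspo2 and Wnt2b the groups did not overlap, so any pairing would give that sign and the pairs add no information on it. Wnt3a differed by 0.17, 0.04 and 0.50 and Bmp4 by 0.03, 0.17 and 0.37, so that the low replicate 3 arrays of Bmp4 were compared with each other. Wnt5a (-0.06, 0.29 and -0.02), Bmp7 (0.14, 0.22 and -0.20) and Rspo3 (0.05, 0.51 and -0.06) crossed 0. Thus 7 of 10 genes were higher in all 3 pairs, against 15.8% of all genes, and by pair 9, 10 and 7 of the 10 were higher.

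With same-numbered arrays as a replicate block, 0 of the 10 genes were called by limma, against 0.222% of all genes. Rspo2 then had the lowest value (0.50, SE 0.08, unadjusted p = 0.000126, adjusted p = 0.0540), and Bmp6 followed (0.72, SE 0.17, adjusted p = 0.223). The block narrowed the SE of Rspo2 (0.10 to 0.08), Bmp4 (0.26 to 0.20), Wnt8b (0.13 to 0.11) and Rspo1 (0.13 to 0.12). It widened that of Bmp6 (0.15 to 0.17) and Wnt5a (0.12 to 0.13), and the rounded SE of the remaining genes was unchanged.

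**Figure D3:**
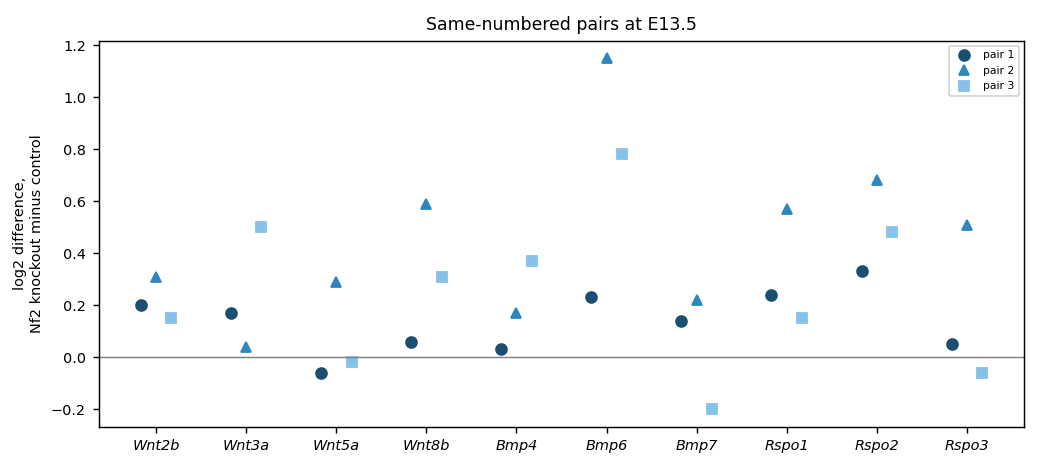
Log2 difference between Nf2 knockout and control (vertical axis) within each same-numbered pair of arrays at E13.5, for the 10 ligand genes. All 3 points of Bmp6, Rspo1, Rspo2, Wnt2b, Wnt3a, Wnt8b and Bmp4 lie above 0, with Bmp6 between 0.23 and 1.15, and Wnt5a, Bmp7 and Rspo3 have points on both sides.

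The effects of the 2 manipulations were compared directly as the Nf2 effect minus the YAP effect, although tissue, age and controls differ between the experiments and cannot be told apart from the manipulation. No ligand gene was called in this test by limma, where 0.281% of all genes were. At an unadjusted p under 0.05 there were 5 of 10, against 10.1% of all genes. Rspo1 had a lower call with YAP, close to the threshold, and a higher mean with Nf2 loss that was not called. Its difference of the effects was the largest (0.84, SE 0.19, adjusted p = 0.113), and was called without YAP overexpression replicate 3 (0.96, adjusted p = 0.0449). Wnt5a (-0.68, SE 0.17, adjusted p = 0.160), Bmp6 (-0.62, SE 0.22, adjusted p = 0.337), Rspo2 (0.44, SE 0.15, adjusted p = 0.319) and Wnt2b (0.37, SE 0.13, adjusted p = 0.324) were the others. Bmp6 was higher in the manipulated group in both experiments, and the difference in size did not pass this test.

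The remaining genes of the pathways were taken from fixed lists. Of 16 other Wnt and R-spondin ligand genes, 0 were called with YAP and 2 had an unadjusted p under 0.05. Wnt4 had the lowest p (0.22, SE 0.08, adjusted p = 0.158, limma). Over 15 alternatives its change ran from 0.14 to 0.58, and it was called in 1 of them (adjusted p = 0.000949). Of 20 Wnt receptor and receptor-regulating genes, 1 rose and 19 were not called. This was Fzd7, a Frizzled receptor, which read 9.02, 9.33 and 9.00 in controls and 9.85, 9.69 and 9.71 with overexpression (0.63, SE 0.10, adjusted p = 0.00239), and whose call was lost in 1 of 15 alternatives, the mean of all its probe sets (adjusted p = 0.0621). Of 9 secreted Wnt inhibitors 0 were called, and Dkk3 had the lowest p (-0.37, SE 0.12, adjusted p = 0.111). Dkk3 was called in 1 of 15 alternatives (adjusted p = 0.0493). Of 18 transducers and targets of Wnt and beta-catenin signalling, 3 fell, 0 rose and 15 were not called. They were Apc, a scaffold that promotes beta-catenin breakdown (-0.38, SE 0.09, adjusted p = 0.0273), Dact1, a regulator of Dishevelled (-0.40, SE 0.10, adjusted p = 0.0403) and Tcf7l2, a DNA-binding partner of beta-catenin (-0.33, SE 0.09, adjusted p = 0.0485). None of the 3 was called after array medians were subtracted (adjusted p = 0.0600, 0.0813 and 0.0674), and they were called in 7, 6 and 5 of 15 alternatives. On the mean of its probe sets Apc differed by -0.13 (adjusted p = 0.326). The feedback targets Axin2 (-0.20, SE 0.10), Nkd1 (-0.37, SE 0.21), Sp5 (0.03, SE 0.15) and Lef1 (-0.01, SE 0.12) were not called.

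In the BMP pathway, 0 of 7 other ligand genes, 0 of 10 receptor and Smad genes and 0 of 10 secreted inhibitors were called with YAP, with 2 of each list at an unadjusted limma p under 0.05. The lowest p in each belonged to Bmp2 (-0.49, SE 0.14, adjusted p = 0.0515), Smad5 (-0.20, SE 0.07, adjusted p = 0.117) and Fst, the gene of follistatin (-0.38, SE 0.12, adjusted p = 0.0952). Bmp2 was called in 1 of 14 alternatives (adjusted p = 0.0480), and Smad5 and Fst in 0 of 15. Bmp2 was dim, at 4.08 to 4.91 and below the array median on all 6 arrays of the YAP experiment. Of 9 BMP target genes 1 rose and 8 were not called. Smad6, an inhibitory Smad induced by BMP signalling, read 6.52, 6.44 and 6.63 in controls and 7.24, 6.96 and 7.29 with overexpression (0.63, SE 0.11, adjusted p = 0.00593). Other targets went both ways without a call, with Smad7 at 0.25 (SE 0.11), Id1 at -0.23 (SE 0.10) and Id3 at -0.35 (SE 0.13). With Nf2 loss, limma called 0 genes of these 8 lists, with 1 or 2 of each at an unadjusted p under 0.05, and the lowest unadjusted p of each belonged to Wnt1 (0.22), Fzd8 (0.23), Dkk3 (0.46), Dact1 (-0.27), Bmp8a (-0.21), Acvr1 (-0.19), Bmper (0.56) and Smad7 (0.34), with adjusted p from 0.353 for Dkk3 to 0.789 for Bmp8a. Wnt1 (2.63 to 3.00) and Bmp8a (3.49 to 3.98) were below the array median on all 6 arrays at E13.5, so their differences are uncertain. Of the 18 transducers and targets 1 had a positive difference in the Nf2 comparison, and of the 10 BMP inhibitors 9 did.

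**Figure D4:**
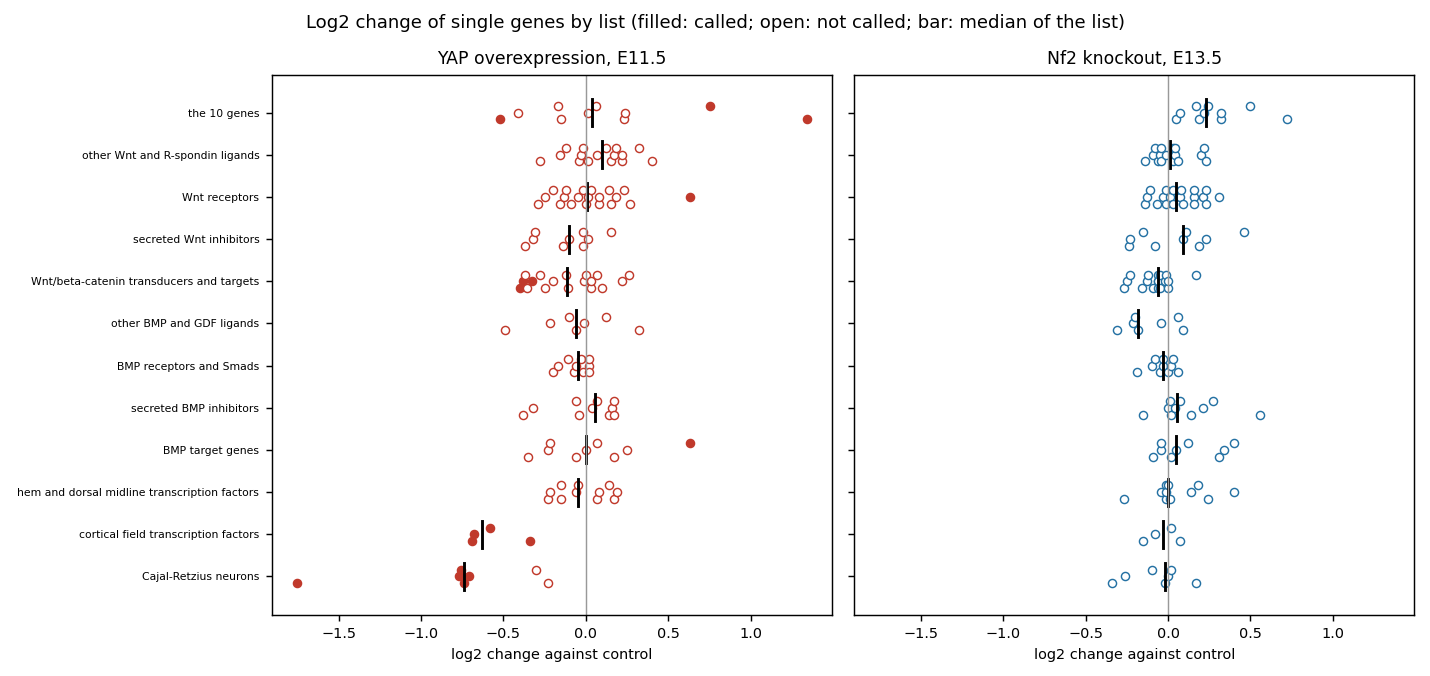
Log2 change against control (horizontal axis) of each measured gene of 12 lists, filled where called and open where not, with a bar at the list's median, for YAP overexpression (left) and Nf2 knockout (right). The 10 ligand genes have a median of 0.03 with YAP and 0.23 with Nf2 loss, and the cortical field and Cajal-Retzius lists have medians of -0.63 and -0.74 with YAP.

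Genes of the hem itself, of its neighbours and of its neurons are given beside the ligands. Of 11 hem and dorsal midline transcription factor genes limma called 0 in either comparison, with 1 (Lhx5, -0.23, SE 0.10, adjusted p = 0.216) and 0 at an unadjusted p under 0.05, and in the latter Gli3 had the lowest p (0.14, SE 0.08). Lmx1a differed by 0.14 (SE 0.17) with YAP and 0.18 (SE 0.17) with Nf2 loss, and Msx1 by -0.22 (SE 0.31) and -0.04 (SE 0.31). The summed linear intensity of the 11 genes ran from 5647 to 6973 in YAP controls and from 6319 to 6716 with overexpression. It ran from 1323 to 1345 in Nf2 controls and from 1285 to 1446 in knockouts. Such sums weigh bright genes most, here Otx2 (11.32 to 11.59 at E11.5) and Gli3 (10.75 to 11.07). These 2 were the brightest at E13.5 as well, so the sums say little about dim genes such as Lmx1a. All 4 cortical field transcription factor genes fell with YAP, namely Lhx2 (-0.69, SE 0.08, adjusted p = 0.000540), whose product represses hem fate in the cortex, Emx2 (-0.68, SE 0.10), Emx1 (-0.58, SE 0.12) and Pax6 (-0.34, SE 0.07). Of 7 genes of Cajal-Retzius neurons 5 fell and 2 were not called. They were the calretinin gene Calb2 (-0.76, SE 0.11), Reln, which encodes the secreted protein reelin (-0.77, SE 0.21), and the transcription factor genes Ebf2 (-0.74, SE 0.17), Ebf3 (-0.71, SE 0.18) and Lhx1 (-1.75, SE 0.38), several of which other neurons express too. Calb2 was called in 15 of 15 alternatives, but Reln, Ebf2, Ebf3 and Lhx1 in 8, 11, 8 and 10. Lhx1 read 9.46, 8.87 and 9.56 in controls and 6.95, 8.69 and 7.00 with overexpression, so its replicate 2 was close to the controls. Neither the cortical field list nor the Cajal-Retzius list had a called gene with Nf2 loss. There the lowest p belonged to Emx1 (-0.15, SE 0.12) and Calb2 (-0.26, SE 0.11), and 0 and 1 genes had an unadjusted p under 0.05.

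Of 10 choroid plexus genes, Folr1, a folate receptor gene, rose with YAP (1.50, SE 0.14, adjusted p = 9.17e-05, limma), as did Foxj1, a regulator of motile cilia (0.43, SE 0.11, adjusted p = 0.0381), and 8 were not called. Foxj1 was dim, above the array median on 2 of the 6 arrays of the YAP experiment. Its call was kept in 7 of 15 alternatives, with adjusted p from 0.0263 to 0.124. Ttr, the transthyretin gene that defines choroid plexus epithelium, ran from 4.87 to 6.99 in YAP controls and from 4.43 to 5.81 with overexpression, and from 12.61 to 12.71 and 12.43 to 12.70 in Nf2 controls and knockouts. The summed level of the 10 genes was 395 to 527 against 632 to 675 with YAP, and 7949 to 8424 against 7076 to 8622 with Nf2 loss. Without Folr1, a sum added after the data were seen, the other 9 genes ran from 281 to 425 in YAP controls and from 308 to 367 with overexpression, so that these sums overlapped. With Nf2 loss 0 of the 10 were called and 0 had an unadjusted p under 0.05. Cldn2 had the lowest (-0.26, SE 0.12) and was dim, above the array median on 1 of 6 arrays.

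Markers of other sources of these ligands were followed too. Of 13 genes of meninges and mesenchyme limma called 0 with YAP and 0 with Nf2 loss, with 3 and 1 at an unadjusted p under 0.05 and medians of -0.24 and -0.14. Col1a1, a collagen gene, had the lowest p in both (-0.63, SE 0.20, adjusted p = 0.0841, and -0.46, SE 0.20, adjusted p = 0.752). With YAP, Col1a1 was called in 2 of 15 alternatives (lowest adjusted p = 0.0129). The summed level of the 13 genes ran from 8669 to 12244 in YAP controls and 8776 to 9616 with overexpression. It ran from 4037 to 4401 in Nf2 controls and from 3483 to 4287 in knockouts. Col3a1 was the brightest of the 13 in both experiments (12.46 to 12.96 and 10.63 to 11.17) and weighed most in these sums. Of 9 midbrain and isthmus genes 0 were called in either, with 0 and 2 at an unadjusted p under 0.05, and sums of 1151 to 1373 against 1126 to 1418 with YAP. Pax7 had the lowest p there (-0.20, SE 0.15) and was dim, above the array median on 2 of 6 arrays. Of 9 genes of surface ectoderm and epithelium Krt19, a keratin gene, rose with YAP (0.84, SE 0.11, adjusted p = 0.00108) and 8 were not called. Krt19 was dim, at 4.35, 4.14 and 4.10 in controls and 5.02, 4.96 and 5.14 with overexpression, above the array median on 1 of these 6 arrays, so the size of its change is uncertain. The list had sums of 355 to 430 against 311 to 379. With Nf2 loss 0 of 9 were called, and Krt14, below the array median on all 6 arrays there, had the lowest p (0.25, SE 0.11). Of 8 endothelial genes 0 were called with YAP and 0 had an unadjusted p under 0.05, with a median of 0.08 and sums of 1442 to 1628 against 1550 to 1624. Emcn had the lowest p with YAP (0.17, SE 0.13) and Flt1 with Nf2 loss (-0.39, SE 0.14). The part of these cell types in the ligand changes was not tested. Of 7 genes of neural progenitors and neurons, 4 fell with YAP (Fabp7, Tubb3, Elavl3 and Stmn2) and 3 were not called, and with Nf2 loss 0 were called and Nes had the lowest p (0.36, SE 0.12). Of the 21 genes called with YAP on these lists, 5 were called in 15 of 15 alternatives (Smad6, Lhx2, Emx2, Calb2 and Folr1), and Krt19 in the 14 that gave it a value, since the filter on dim genes removed it. Leaving out a control array ended 12, 6 and 12 of the 21 calls for replicates 1, 2 and 3, and leaving out an overexpression array ended 11, 2 and 11.

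The genes whose pattern was most like that of each called ligand were found by Pearson correlation over the 12 arrays, after each experiment's mean was subtracted. These points share arrays and 4 groups, and the values are descriptions. For Bmp6 they were Wwtr1, which encodes the YAP paralogue TAZ (r = 0.976), Mars1 (0.965) and Hmgcs1 (0.960). For Wnt5a they were Pwp1 (0.976), Tmem64 (0.962) and Aldoa (0.952), and for Rspo1 A930033H14Rik (0.921), Fam204a (0.920) and Mlxipl (0.916). Wwtr1 differed by 0.35 with YAP and 0.18 with Nf2 loss, smaller changes than those of Bmp6 in the same order. Among the ligand genes themselves Wnt5a and Bmp6 were the most alike (r = 0.887), and Wnt5a and Rspo1 the least (r = -0.577).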

How the data were processed

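The authors deposited 1 log2 intensity for each probe set of each of 12 Affymetrix arrays. RMA, Partek 6.5 and Affymetrix Expression Console 1.1 are listed, per the submitters' processing notes, with no role, and probe filters and any batch step are not given in the sources used here. Medians and upper quartiles were near-equal within each experiment and not between the 2, so each comparison stayed within an experiment, and a separate normalization may have removed shared shifts. No depth applies to arrays, and the number of arrays limits precision.

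GEO's platform annotation, which can be old, named 29449 of 45037 probe sets, 28898 with a single gene and 551 with several, and 28689 were brought to a current symbol by Entrez ID. The probe set with the highest mean over 12 arrays stood for each of 17097 genes. A model of 4 group means was fitted with limma 3.58.1 in R 4.3.3 (8 residual and 4.096 prior degrees of freedom), two-sided, with Benjamini-Hochberg adjustment over all genes or all probe sets. SE is the model's. An exact permutation test of 3 against 3 cannot go below 0.1 and was not used. The code was tested on simulated data.

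Residuals of same-numbered arrays correlated at 0.271, 0.212 and 0.207 in the Nf2 experiment, where unequal numbers reached at most -0.000108. Residuals of a group sum to 0, so positive values at equal numbers push the others below 0, and those are not separate evidence. In the YAP experiment equal numbers gave 0.0971, -0.195 and -0.204, and unequal numbers reached 0.304. Pairs are thus not established, and the paired values of the Nf2 experiment are given beside the main fit. The members and lists were chosen with earlier results of these data known. Beyond the 10 genes, the text names listed genes that were called or had their list's lowest p, and the 3 genes most alike to each called member. Listed genes without a single-gene probe set were not analysed here. Promoters came from RefSeq on GRCm38.p6.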

Additional observations from a re-analysis of the deposited data

Results flagged for a closer look

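The effect differed between the experiments for 2 of the genes named from the lists and for no ligand gene, by limma's test of the difference. Folr1 read 6.83, 6.80 and 6.68 in YAP controls and 8.34, 8.33 and 8.13 with overexpression, against 7.47, 7.18 and 7.45 in Nf2 controls and 7.08, 7.72 and 7.37 in knockouts, so it was higher with YAP (1.50) and not with Nf2 loss (0.02). The difference of the effects was -1.47 (adjusted p = 0.00709), called in 18 of 19 alternatives. Lhx2 was lower with YAP (-0.69) and differed by 0.02 with Nf2 loss, a difference of 0.71 (adjusted p = 0.0278) that was called in 8 of 19 alternatives, with adjusted p from 0.0153 to 0.146. Tissue and age differ between the experiments as well and cannot be told apart from the manipulation.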

How the results depend on the processing

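Alternatives changed the scaling, the probe set of a gene, the arrays in the fit, the weights, a filter on dim genes, pairing and single arrays. With YAP the called ligand genes numbered 3 or 2, always with Bmp6 and Wnt5a. With Nf2 loss 0 were called, except 1 (Bmp6) with array weights. In the difference 0 were called, with 0 to 1 when single arrays were left out. Genes called over the whole array numbered 1078 with YAP (361 with only its 6 arrays, 529 to 1241 with single arrays left out), 43 with Nf2 loss (25 with only its 6 arrays, 67 with array weights, 20 to 32) and 48 in the difference (73 with the filter on dim genes, 21 with the replicate block, 21 to 161). The YAP replicate block, for which same-numbered residuals did not all correlate positively, left the ligand calls at Bmp6 and Wnt5a. The sign of some uncalled differences turned. With YAP, Bmp7 was -0.09 on the mean of its probe sets, -0.02 with array weights and -0.04 to 0.12 with single arrays left out, and Emcn 0.00 to 0.33. With Nf2 loss, single arrays took Bmp7 to -0.02 to 0.18, Bmp4 to -0.08 to 0.37 and Wnt5a to -0.01 to 0.11. In the difference, Wnt3a was -0.02 with medians subtracted, -0.06 after quantile normalization and -0.08 to 0.11 with single arrays left out, Bmp7 was -0.01 after quantile normalization and -0.06 to 0.17, and Wnt8b -0.02 to 0.22. The difference has no value with only 6 arrays or with probe sets chosen per experiment, and Wnt2b, Krt19, Krt14, Bmp2, Bmp8a, Cldn2 and Pax7 have none with the filter, which removed them. The causes were not tested.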
